A study of Homo sapiens with 4 samples.

Results

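The Notch pathway genes described here are 3 receptors (NOTCH1, NOTCH2 and NOTCH3), 4 ligands (DLL1, DLL3, JAG1 and JAG2) and 3 transcription factors of the HES and HEY families (HES1, HEY1 and HES6). They were chosen by gene symbol, and all 10 were found among the 26364 genes listed in the expression files. Of these 10 genes, 4 had a mean of at least 1 RPKM (reads scaled to the length of the gene and to the reads mapped in the sample) over the samples, as did 11411 of all genes. RNA-seq was performed in BE(2)C, a human neuroblastoma cell line with amplified MYCN, the oncogene encoding the transcription factor N-Myc. The comparison asks how the transcriptome of these cells changes when MYCN is reduced with a small interfering RNA (siRNA). The 2 control samples (Ctrl) received a non-targeting siRNA and are labelled wild type, and the 2 knockdown samples (MYCN KD) received an siRNA against MYCN. According to the labels, both groups were incubated for 6 h with siRNA at 80 nM in a lipid transfection reagent, and RNA was extracted the next day. The study's methods give a lower final siRNA concentration, once medium had been added. Both groups therefore share the amplified MYCN locus, the transfection and a single cell line, and the comparison is limited to 1 time point after a transient, partial knockdown.

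The normalised reads behind the values summed to 34142988 and 31976939 in the Ctrl samples and to 29055819 and 30941778 in the MYCN KD samples. MYCN itself was at 1067.9 and 1073.0 RPKM in Ctrl, against 720.2 and 718.0 RPKM in MYCN KD, which gave a log2 fold change of -0.57 (SE 0.029, adjusted p = 0.00361 in limma). All 7 adrenergic neuroblast markers used (PHOX2A, HAND2, GATA3, TH, DBH, CHGA and ISL1) exceeded a mean of 1 RPKM, with summed levels of 3031 and 2763 RPKM in Ctrl, against 3954 and 4333 RPKM in MYCN KD. Of the mesenchymal markers, 4 of 8 exceeded 1 RPKM, and they summed to 205 and 214 RPKM in Ctrl, against 283 and 272 RPKM in MYCN KD, with the defining factor PRRX1 at 0 in every sample. Most of that sum was VIM (154 and 159 RPKM in Ctrl, 235 and 227 RPKM in MYCN KD), which rose. COL1A1 (0.726 and 0.739 RPKM, then 1.78 and 1.74 RPKM) also lay higher, as did FN1, CD44 and YAP1, each below 1 RPKM. TWIST1 (45.8 and 49.5 RPKM, then 42.1 and 39.1 RPKM) and SNAI2 (3.76 and 3.78 RPKM, then 3.41 and 3.40 RPKM) lay lower in MYCN KD. These 2 did not pass the test (adjusted p = 0.0615 and 0.0816). Of the 8 markers, 5 lay higher and 2 lower in both MYCN KD samples, beside 39.3% and 26.3% of all genes above 0. Of the Schwann cell markers, 2 of 5 exceeded 1 RPKM, and they summed to 5.30 and 4.87 RPKM in Ctrl, against 8.92 and 9.69 RPKM in MYCN KD, with the defining factor SOX10 between 0.0307 and 0.0722 RPKM. The endothelial markers (0 of 5 above 1 RPKM) summed to 0.291 and 0.373 RPKM in Ctrl, against 0.658 and 0.522 RPKM in MYCN KD. Of the 5, 4 lay higher in both MYCN KD samples, as did 39.3% of all genes above 0. For KDR and TEK, 2 of these 4, this rested on 0 to 2 reads a sample. The leukocyte markers (1 of 5 above 1 RPKM) summed to 1.80 and 1.58 RPKM in Ctrl, against 1.57 and 1.77 RPKM in MYCN KD. Their part in the results was not tested. In bulk RNA, fewer cells of a type and less RNA per cell cannot be told apart.

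Notch signalling passes between neighbouring cells: a ligand of the Delta-like or Jagged family on one cell binds a NOTCH receptor on the next, the receptor is cut by ADAM proteases and then by gamma-secretase, and its intracellular domain moves to the nucleus. There it joins the DNA-binding protein RBPJ and a Mastermind-like coactivator and switches on target genes, of which the HES and HEY repressors are the best known. In the developing nervous system and the sympathoadrenal lineage, these repressors hold back proneural factors, and the pathway is known for setting the balance between progenitors and differentiating neurons.

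Across the 10 genes, JAG2 and HES1 showed the widest loss of RNA relative to Ctrl after MYCN knockdown. HEY1 and DLL3 fell by smaller shares, and no gene passed the test in the other direction. Of the 4 genes with a mean of at least 1 RPKM, 3 fell (DLL3, HES1 and HEY1) and 1, HES6, did not pass. The background for this count is high: among the 11411 genes tested by limma, 48.1% were called at an adjusted p of 0.05, 22.8% as lower and 25.3% as higher in MYCN KD. For these 4 genes the median log2 fold change was -0.31, beside 0.03 over all genes tested. The 6 genes below 1 RPKM were fitted without the filter on low values, and limma voom on the reads recovered from the RPKM values was added after the data were seen. With voom 4 of the 10 genes were called lower and 0 higher, beside 17.9% lower and 24.2% higher among 15888 genes, and without the filter the count was likewise 4 lower and 0 higher, where 30% of 19908 genes were called, 13% as lower and 17% as higher. In 8 of the 10 genes the 2 groups did not overlap in RPKM (6 lower and 2 higher in MYCN KD), as in 65.6% of the 19908 genes above 0 (26.3% lower and 39.3% higher). For DLL1, counted as higher, the reads themselves overlapped (9 and 6 in Ctrl, 8 and 10 in MYCN KD). JAG1, counted as lower, had 7 and 7 reads in Ctrl and 4 and 5 in MYCN KD. With 2 samples a group, an exact permutation test of 1 gene cannot give a p below 0.333, so each call rests on the spread estimated across all genes. The labels do not say that the samples came from separate cultures, so these p-values measure the spread between these samples only.

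**Figure D1:**
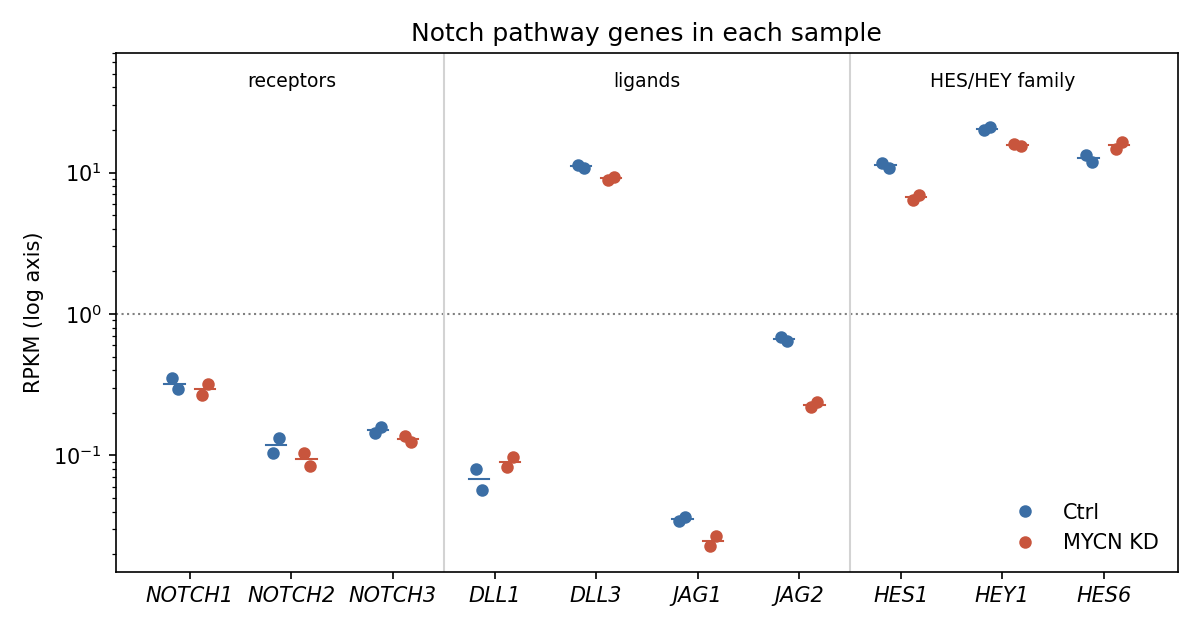
RPKM of the 10 Notch pathway genes in each sample on a log10 axis, with a point for each Ctrl and MYCN KD sample. DLL3, HES1, HEY1 and HES6 lie between 6.36 and 20.9 RPKM, and the other 6 genes are at or below 0.693 RPKM in every sample.

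The levels fell into separate ranges. HEY1, HES6, DLL3 and HES1 had more RNA per length than 69.5% to 80.2% of all genes above 0, whereas JAG2, the highest of the rest, exceeded 36.2% and JAG1, the lowest, 16.2%. In the Ctrl samples HEY1 (19.97 to 20.9 RPKM) stood above HES6 (11.9 to 13.3 RPKM), DLL3 (10.7 to 11.4 RPKM) and HES1 (10.7 to 11.7 RPKM), and of these only DLL3 and HES1 overlapped each other. In the MYCN KD samples HEY1 (15.3 to 15.99 RPKM) and HES6 (14.7 to 16.4 RPKM) overlapped each other, followed by DLL3 (8.82 to 9.34 RPKM) and, lowest of the 4, HES1 (6.36 to 6.99 RPKM).

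The receptors are single-pass proteins that carry the signal from the membrane to the nucleus. NOTCH1, on chromosome 9 (139388885 to 139440500, minus strand, GRCh37/hg19, 34 exons), was at 0.350 and 0.293 RPKM in Ctrl, against 0.267 and 0.320 RPKM in MYCN KD. These values rested on 111 and 87 reads against 72 and 92 reads, and the groups overlapped. The voom log2 fold change was -0.13 (95% confidence interval -0.57 to 0.31, adjusted p = 0.522), and its sign was lost without Ctrl replicate 1, at 0.000282. NOTCH2, on chromosome 1 (120454176 to 120643366, minus strand, 34 exons), had 42 and 50 reads in Ctrl, against 36 and 31 reads in MYCN KD, or 0.104 and 0.132 RPKM against 0.105 and 0.0847 RPKM. The groups overlapped here too, with a log2 fold change of -0.31 (-0.87 to 0.25, adjusted p = 0.264). NOTCH2 has near-identical NOTCH2NL copies on the same chromosome, and how reads shared with them were counted is not given in the sources used here, so its level is uncertain.

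NOTCH3, on chromosome 19 (15269849 to 15311806, minus strand, 33 exons), was at 0.145 and 0.159 RPKM in Ctrl, against 0.136 and 0.124 RPKM in MYCN KD, from 40, 41, 32 and 31 reads. Both MYCN KD samples were below both Ctrl samples, but the log2 fold change of -0.22 (-0.53 to 0.09) did not pass the test (adjusted p = 0.186). NOTCH3 was called after quantile normalization (adjusted p = 0.0445). The 95% Poisson interval of the 32 reads of NOTCH3 in MYCN KD replicate 1 ran from 21.9 to 45.2. NOTCH4, the remaining human receptor, had at most 1 read in any sample. The gene length recovered for NOTCH4, 43779 bases, was longer than those of the other receptors (8070 to 11823 bases), so its level is uncertain. Summed over the receptors, the level was 0.60 and 0.584 RPKM in Ctrl, against 0.509 and 0.529 RPKM in MYCN KD. NOTCH1 held 58.3% and 50.1% of that sum in Ctrl, against 52.4% and 60.4% in MYCN KD, so the make-up of the receptor pool did not separate the groups.

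**Figure D2:**
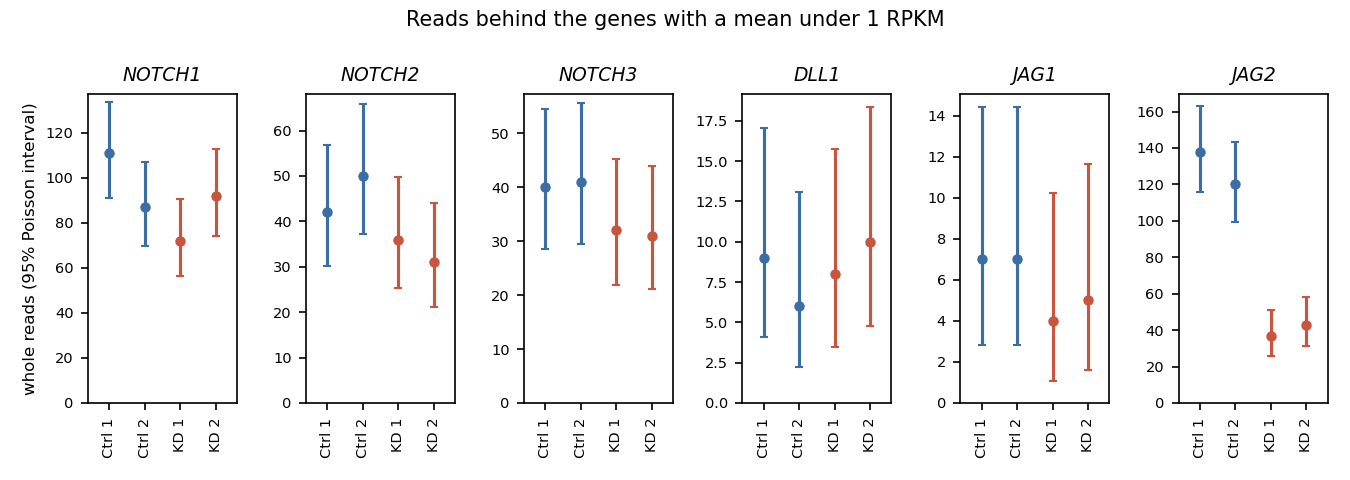
Recovered normalised reads per sample, with 95% Poisson intervals, for the 6 Notch pathway genes with a mean under 1 RPKM (Ctrl in blue, MYCN KD in red). Only for JAG2 do the Ctrl intervals (the lower bounds are 116 and 99.5 reads) lie above the MYCN KD intervals (the upper bounds are 51.0 and 57.9 reads).

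Among the ligands, DLL3 dominated the RNA and JAG2 showed the widest relative change. DLL3, a divergent Delta-like protein held mostly inside the cell that dampens Notch signalling in the same cell, lies on chromosome 19 (39989535 to 39999121, plus strand, 9 exons). Its level was 11.4 and 10.7 RPKM in Ctrl, against 8.82 and 9.34 RPKM in MYCN KD, from 926, 817, 611 and 689 reads. Both MYCN KD samples lay below both Ctrl samples, with means of 9.08 ± 0.368 RPKM against 11.1 ± 0.466 RPKM (SD, n = 2). The log2 fold change on the log2(RPKM + 1) scale was -0.26 (SE 0.055, interval -0.42 to -0.09, adjusted p = 0.0328), and the mean decreased by 17.8%. The call was lost when any 1 of the 4 samples was left out, with adjusted p-values from 0.0819 to 0.235.

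JAG2, a Jagged ligand that activates receptors on neighbouring cells, lies on chromosome 14 (105607319 to 105635161, minus strand, 26 exons). It was at 0.693 and 0.643 RPKM in Ctrl, against 0.218 and 0.238 RPKM in MYCN KD, from 138 and 120 reads against 37 and 43 reads. The groups were well apart, and the mean in Ctrl was 2.93 times that in MYCN KD, so that the level decreased by 65.8%. In voom the log2 fold change was -1.54 (SE 0.092, interval -1.80 to -1.27, adjusted p = 0.00537), and it was called without any 1 of the 4 samples, at -1.60 to -1.48. The fit of log2(RPKM + 1) without a filter gave -0.44 (adjusted p = 0.00807), a scale that understates the change of a gene this low. In that fit the call was lost without any 1 of the 4 samples (adjusted p from 0.0946 to 0.126).

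The other ligands were covered by few reads. JAG1, the other Jagged ligand, on chromosome 20 (10618332 to 10654647, minus strand, 26 exons), had 7 and 7 reads in Ctrl, against 4 and 5 reads in MYCN KD, or 0.0342, 0.0366, 0.0230 and 0.0270 RPKM. DLL1, a Delta-like activating ligand on chromosome 6 (170591294 to 170615653, minus strand, 11 exons), had 9 and 6 reads in Ctrl, against 8 and 10 reads in MYCN KD, or 0.0796, 0.0567, 0.0832 and 0.0976 RPKM. Neither passed the test: the log2 fold changes in voom were -0.45 (-0.93 to 0.03, adjusted p = 0.107) for JAG1 and 0.40 (-0.25 to 1.06, adjusted p = 0.228) for DLL1. Taking DLL1, DLL3, DLL4, JAG1 and JAG2 together, the level was 12.2 and 11.5 RPKM in Ctrl, against 9.18 and 9.75 RPKM in MYCN KD. DLL3 held 92.9% and 93.2% of that sum in Ctrl, against 96.1% and 95.8% in MYCN KD. JAG2 held 5.66% and 5.59% in Ctrl, against 2.38% and 2.44% in MYCN KD, the opposite shift.

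The HES and HEY proteins are basic helix-loop-helix repressors that Notch signalling switches on in many tissues. HES1, the classical direct target, which represses proneural genes and its own promoter, lies on chromosome 3 (193853937 to 193856521, plus strand, GRCh37/hg19, 4 exons). Its RNA was at 11.7 and 10.7 RPKM in Ctrl (586 and 499 reads) and at 6.36 and 6.99 RPKM in MYCN KD (270 and 316 reads). Both MYCN KD samples were well below both Ctrl samples, with means of 6.68 ± 0.445 RPKM and 11.2 ± 0.754 RPKM (SD, n = 2), so that the level decreased by 40.5%. The log2 fold change was -0.67 (SE 0.075, interval -0.89 to -0.45, adjusted p = 0.00907), and HES1 was called under every alternative tried.

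HEY1, a repressor of the related HEY family, lies on chromosome 8 (80674606 to 80680092, minus strand, 5 exons). It was at 19.97 and 20.9 RPKM in Ctrl (1758 and 1724 reads) and at 15.99 and 15.3 RPKM in MYCN KD (1198 and 1222 reads). The groups did not overlap, and the means of 15.7 ± 0.477 RPKM in MYCN KD and 20.4 ± 0.665 RPKM in Ctrl (SD, n = 2) show that the level decreased by 23.4%. The log2 fold change of -0.36 (SE 0.048, interval -0.50 to -0.22) passed the test (adjusted p = 0.0119). In voom the call was lost without MYCN KD replicate 2 (-0.35, adjusted p = 0.0527).

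HES6 differs in function from HES1: it counteracts HES1 and favours neuronal differentiation. The gene lies on chromosome 2 (239146908 to 239149303, minus strand, 4 exons) and was at 13.3 and 11.9 RPKM in Ctrl (659 and 554 reads) and at 14.7 and 16.4 RPKM in MYCN KD (623 and 736 reads). Both MYCN KD samples lay above both Ctrl samples, with means of 15.6 ± 1.14 RPKM and 12.6 ± 0.961 RPKM (SD, n = 2). The log2 fold change of 0.28 (SE 0.084, interval 0.04 to 0.53) did not pass the test (adjusted p = 0.0654). Among the alternatives that called HES6 were the one in which every sample was rescaled to the same RPKM total (0.34, adjusted p = 0.0320) and those without Ctrl replicate 1 (0.36, adjusted p = 0.0269) or MYCN KD replicate 1 (0.35, adjusted p = 0.0353).

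**Figure D3:**
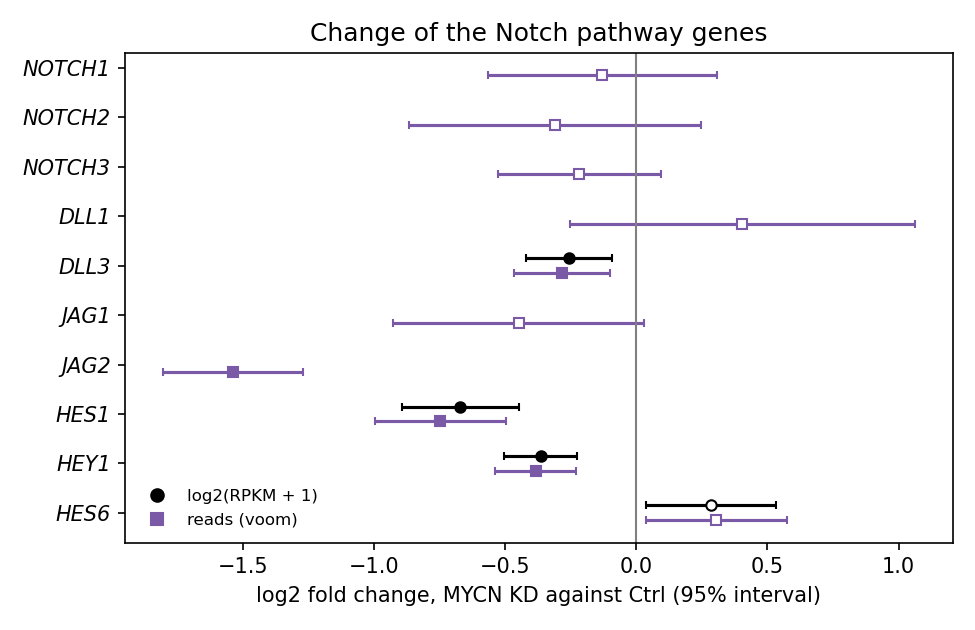
Log2 fold change (MYCN KD minus Ctrl) of the 10 Notch pathway genes with 95% confidence intervals, from limma on log2(RPKM + 1) in black and from limma voom on the recovered reads in purple, with filled symbols for called genes. JAG2 (-1.54 in voom) and HES1 (-0.67 on the RPKM scale) lie farthest below 0, and the intervals of NOTCH1, NOTCH2, NOTCH3, DLL1 and JAG1 include 0.

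The promoter sequences of HES1, JAG2 and HES6 are shown because these are the strongest relative falls and the 1 well-expressed gene with higher RPKM after the knockdown. Each is the 250 bases before the RefSeq transcription start (GRCh38.p14), written 5′ to 3′ on the strand of the gene, at chr3:194135898-194136147 (plus strand) for HES1, chr14:105168777-105169026 (minus strand) for JAG2 and chr2:238240039-238240288 (minus strand) for HES6. Capitals mark TGGGAA, the core of the RBPJ motif.
HES1: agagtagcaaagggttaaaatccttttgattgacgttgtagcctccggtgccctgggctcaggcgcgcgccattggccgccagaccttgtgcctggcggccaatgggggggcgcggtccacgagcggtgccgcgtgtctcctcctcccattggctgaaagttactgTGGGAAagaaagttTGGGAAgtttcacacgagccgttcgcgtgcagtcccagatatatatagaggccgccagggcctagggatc
JAG2: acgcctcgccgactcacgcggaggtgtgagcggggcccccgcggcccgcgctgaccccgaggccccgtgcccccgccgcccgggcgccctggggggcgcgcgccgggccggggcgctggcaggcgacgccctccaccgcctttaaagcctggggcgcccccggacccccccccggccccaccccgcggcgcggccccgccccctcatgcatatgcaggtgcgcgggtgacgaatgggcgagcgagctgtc
HES6: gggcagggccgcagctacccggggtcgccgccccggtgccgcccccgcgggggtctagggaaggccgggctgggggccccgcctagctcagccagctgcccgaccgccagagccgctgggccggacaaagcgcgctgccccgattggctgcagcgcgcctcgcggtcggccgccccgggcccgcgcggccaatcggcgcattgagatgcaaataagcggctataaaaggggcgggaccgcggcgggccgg
A promoter entry was found for 7 of the 10 genes, and DLL1, DLL3 and HEY1 had none. The search covered both strands for the RBPJ core TGGGAA, which reads TTCCCA on the other strand, for the palindromic E-box CACGTG, bound by Myc proteins with Max, and for the N-box CACNAG, which reads CTNGTG on the other strand and is bound by HES repressors, and no stretch of 6 bases can match more than 1 of them. HES1 held 2 RBPJ cores, at -84 to -79 and -70 to -65 from the start, as a pair on the same strand, and 3 N-boxes, at -165 to -160 on the opposite strand and at -132 to -127 and -58 to -53. Among 27305 promoters of the same length, 21.1% held the RBPJ core, 32.0% the N-box and 6.49% the E-box. NOTCH3 held 1 N-box at -211 to -206, and NOTCH1, NOTCH2, JAG1, JAG2 and HES6 held none of the 3 motifs. None of the 7 promoters held the E-box letters in this window. A match describes the letters only and is not a measured binding site.

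**Figure D4:**
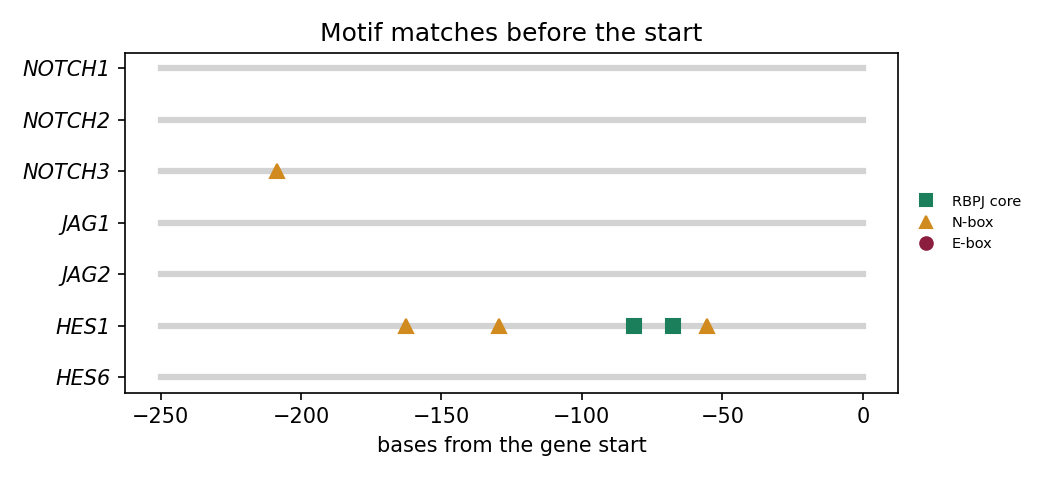
Matches to the RBPJ core, E-box and N-box letters in the 250 bases before the start of the 7 Notch pathway genes with a promoter entry, by distance from the start in bases. HES1 carries 5 matches and NOTCH3 carries 1.

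A list of 65 further pathway genes was described by role, of which 45 had a mean of at least 1 RPKM. Of these, 14 rose and 7 fell, beside 25.3% and 22.8% of all genes tested, and 24 did not pass. With every sample rescaled to the same RPKM total the counts were 15 and 5, beside 3279 and 2122 of all 11411 genes. The median log2 fold change was 0.11, beside 0.03 over all genes. Unless voom is named, log2 fold changes of these genes are on the log2(RPKM + 1) scale. That scale understates the change of genes at a few RPKM. By the ratio of the MYCN KD mean to the Ctrl mean, APH1B (3.23) stood above LFNG (3.03), the reverse of their order on that scale.

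**Figure D5:**
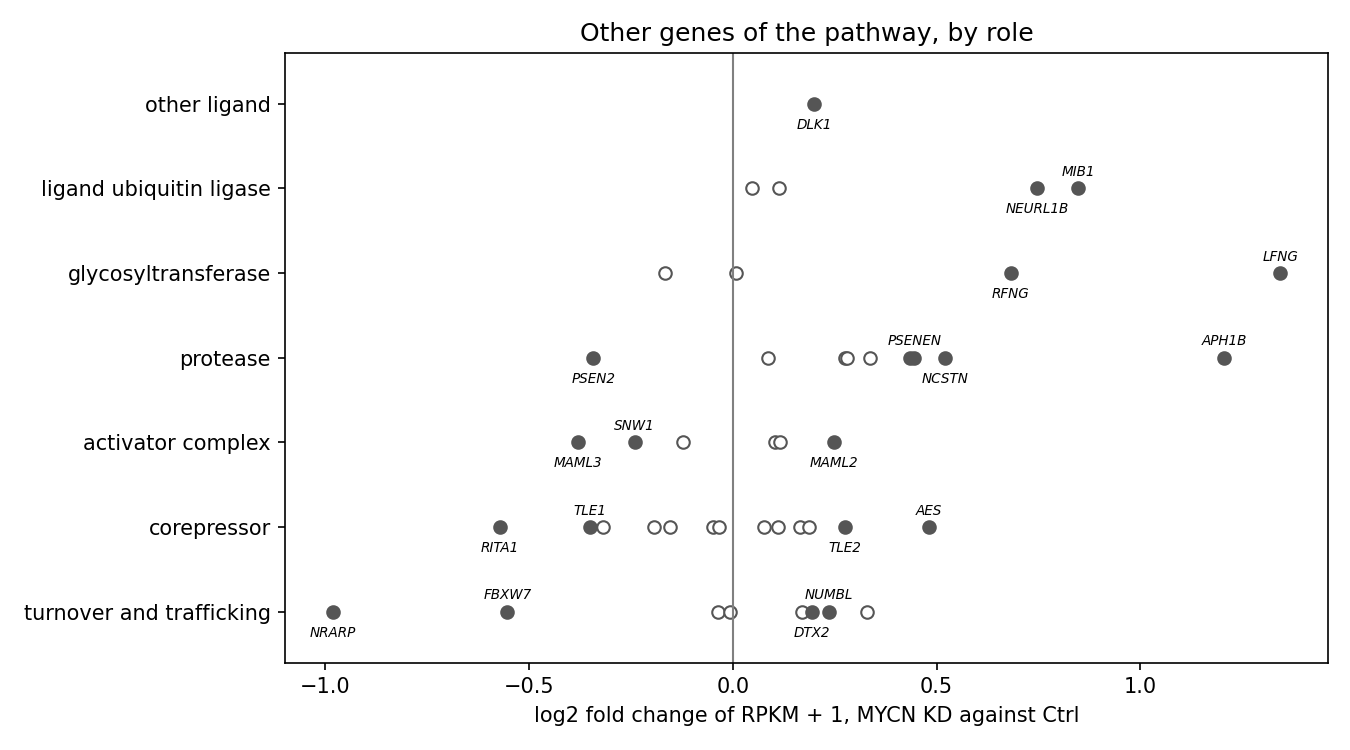
Log2 fold change (MYCN KD minus Ctrl) of the further pathway genes with a mean of at least 1 RPKM, grouped by role, with called genes as filled points and genes that did not pass as open points. On the log2(RPKM + 1) scale used, LFNG (1.34) and APH1B (1.21) lie farthest above 0 and NRARP (-0.98) farthest below.

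On the side of the cell that sends the signal, 2 of 4 ubiquitin ligases that activate ligands rose and none fell. Over all genes tested 25.3% rose and 22.8% fell, so a count this small is not read as a result about the ligases. MIB1, which marks Delta and Jagged ligands for the endocytosis that makes them active, went from 2.40 and 2.80 RPKM in Ctrl to 5.89 and 5.07 RPKM in MYCN KD (log2 fold change 0.85, adjusted p = 0.00973). NEURL1B, a ligase of the Neuralized family, went from 2.93 and 2.85 RPKM to 5.46 and 5.61 RPKM (0.75, adjusted p = 0.00383). The ratios of the MYCN KD mean to the Ctrl mean were 2.11 for MIB1 and 1.91 for NEURL1B. Of the other ligand genes, DLK1, a Delta-related protein without the receptor-binding domain of the classical ligands, was by far the most abundant gene of the list, at 1471 and 1391 RPKM in Ctrl, against 1600 and 1688 RPKM in MYCN KD. Its log2 fold change of 0.20 passed narrowly (adjusted p = 0.0473), and the call was lost when any 1 sample was left out (adjusted p from 0.0722 to 0.265). DLL4, DLK2 and DNER were below 1 RPKM and were not called in voom.

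Among the glycosyltransferases that modify receptors, 2 of the 4 tested rose and none fell, beside 25.3% and 22.8% of all genes tested. LFNG, the lunatic fringe enzyme that extends O-fucose on NOTCH and shifts its response toward Delta ligands, rose from 3.29 and 2.97 RPKM to 9.03 and 9.93 RPKM (log2 fold change 1.34, adjusted p = 0.00380). RFNG, radical fringe, rose from 7.96 and 6.77 RPKM to 11.5 and 13.4 RPKM (0.68, adjusted p = 0.0203). MFNG, the third fringe gene, was below 1 RPKM and was not called in voom (-0.21), so among the fringe genes only LFNG and RFNG were called.

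Of 9 proteases and gamma-secretase subunits, 4 rose and 1 fell, beside 25.3% and 22.8% of all genes tested. APH1B, a scaffold subunit of gamma-secretase, rose from 1.33 and 1.51 RPKM to 4.87 and 4.31 RPKM (1.21, adjusted p = 0.00426), with the groups far apart. NCSTN, the nicastrin subunit that receives the substrate, rose by 0.52 (adjusted p = 0.0133) and PSENEN, the subunit needed for presenilin maturation, by 0.45 (adjusted p = 0.0309). FURIN, which cuts NOTCH during its transport to the surface, rose by 0.44 (adjusted p = 0.0286) and is named here after its values were seen. PSEN2, a catalytic presenilin, fell by 0.34 (adjusted p = 0.0286), and this call was lost without 2 of the 4 samples in turn (adjusted p of up to 0.112).

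In the nuclear complexes the changes were mixed, where 25.3% of all genes tested were called higher and 22.8% lower. RBPJ was at 8.86 and 10.5 RPKM in Ctrl, against 11.3 and 9.63 RPKM in MYCN KD, with overlapping groups and a log2 fold change of 0.10 (adjusted p = 0.513), and it is named here after its values were seen. Of the 6 activator genes tested, MAML2 rose (0.25, adjusted p = 0.0230), while MAML3 (-0.38, adjusted p = 0.0420), another Mastermind-like coactivator, and SNW1 (-0.24, adjusted p = 0.0370), a component of the RBPJ complex, fell. Leaving out 1 sample raised the adjusted p to as much as 0.188 for MAML2, 0.0971 for MAML3 and 0.200 for SNW1. Of the 13 corepressor genes tested, AES (now TLE5), a short Groucho relative, rose by 0.48 (adjusted p = 0.00958) and TLE2 by 0.28 (adjusted p = 0.0420). RITA1, which carries RBPJ out of the nucleus, fell by 0.57 (adjusted p = 0.0195), and TLE1, a Groucho corepressor used by HES proteins, fell by 0.35 (adjusted p = 0.0234). Without 1 sample the adjusted p reached 0.0776 for TLE1 and 0.218 for TLE2.

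Of the 8 turnover and trafficking genes tested, 2 rose and 2 fell, close to the shares over all genes tested (25.3% and 22.8%). NRARP, a small ankyrin protein that Notch signalling induces and that limits the intracellular domain, fell from 4.11 and 4.45 RPKM in Ctrl to 1.73 and 1.62 RPKM in MYCN KD. Its log2 fold change of -0.98 (adjusted p = 0.00399) was the largest decrease among the 45 further genes tested, and the Ctrl mean was 2.56 times that of MYCN KD. FBXW7, which directs the intracellular domain to degradation, fell by 0.55 (adjusted p = 0.00728), from 3.52 and 3.79 RPKM to 2.24 and 2.1 RPKM. NUMBL (0.24, adjusted p = 0.0343), a Numb-like adaptor, and DTX2 (0.19, adjusted p = 0.0393), a Deltex ligase, rose by small amounts, and both calls were lost when any 1 sample was left out (adjusted p of up to 0.258 and 0.370).

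The remaining HES and HEY genes were barely expressed. HES2 was at 0 in every sample, HES3, HES4, HES5, HEY2 and HEYL were at or below 0.251 RPKM, and HES7, an oscillator of somite segmentation, had 8 and 9 reads in Ctrl, against 1 and 0 reads in MYCN KD (adjusted p = 0.0234 in voom). Of the 5 genes listed as proneural factors, NEUROG1, NEUROD1 and NEUROD4 were at 0 in every sample, and NEUROG2 had at most 1 read. INSM1, the remaining gene of that list, was lower in MYCN KD and is described under the other observations.

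The calls of MIB1, NEURL1B, LFNG, RFNG, APH1B, NCSTN, RITA1, AES, NRARP and FBXW7, 10 of the 20 named pathway genes, held under each alternative tried, and the other 10 lost the call under at least 1. Whether counting used strand is not given in the sources used here. Of the 10 Notch pathway genes, 5 (NOTCH1, NOTCH2, DLL1, JAG1 and HES6) overlap an annotated gene on the opposite strand. NOTCH1, DLL1 and JAG2 overlap an annotated noncoding gene on the same strand, which counting by strand would not separate. Reads of these partners cannot be told apart from those of the Notch pathway genes.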

How the data were processed

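The 2 Ctrl and 2 MYCN KD samples of BE(2)C RNA-seq were grouped by their labels. To make the deposited RPKM values, 1 file per sample, the authors aligned reads against hg19 (HISAT2 2.1.0), counted them on RefSeq genes (featureCounts), passed the counts through DESeq2 and RUVSeq, and scaled the normalised counts. The RUVSeq variant and number of factors are not given in the sources used here. Such an adjustment can shrink the spread between replicates, and p-values then come out smaller.

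For each gene, the smallest length up to 300000 bases at which every sample gave whole reads was taken (tolerance 0.01 reads). Such a length was found for 100% of the 19908 genes above 0. Since the length was searched for, this share does not check it. Each sample's total was set from the small RNA genes, of which 92.9% to 94.1% came out whole. These reads are counts after RUVSeq normalisation, so the exact Poisson intervals (95%) cover counting error only. The gene length recovered for HEY1 was doubled, since it fell under 0.6 of the canonical transcript.

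Values were tested as log2(RPKM + 1) with limma 3.58.1 (lmFit, eBayes with a trend) in R 4.3.3, 2-sided, without a block, over the 11411 genes with a mean of at least 1 RPKM, with Benjamini-Hochberg adjustment over all of them and a threshold of 0.05. Limma voom on reads used genes with at least 10 reads over the samples. Motif searches used Python 3.11.15 with pandas 2.3.3. Gene positions are from GENCODE 44 lifted to GRCh37, and promoters are from RefSeq (GRCh38.p14). The scripts were tested on simulated data. Alternatives were the pseudocount, filters, scalings, trend, block and leaving out each sample. Named genes were all 10 Notch pathway genes, MYCN, and from each pathway role up to 3 called genes per direction with the largest change and groups that do not overlap, plus low receptor, ligand, HES and HEY genes. The genes and lists were chosen with earlier results of these data known. Of these lists, 2 genes are not reported here and were left out of the counts and sums.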

Additional observations from a re-analysis of the deposited data

How the results depend on the processing

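The log2 fold changes of HES1, NOTCH2, DLL1 and JAG1 kept their direction and their side of the threshold under every alternative. Of the 4 genes with a mean of at least 1 RPKM, the count called higher (0) was 1 when samples were rescaled to the same RPKM total. The count called lower stayed at 3 with that rescaling. NOTCH3 was called after quantile normalization (adjusted p = 0.0445). Without the filter, NOTCH1 changed sign when Ctrl replicate 1 was left out, at 0.000288 (range -0.062 to 0.000288 on the log2 scale), and in voom it ranged from -0.26 to 0.000282. Of the further pathway genes, 8 were called higher at a mean of at least 5 RPKM, 5 were called lower after rescaling, and 10 to 12 higher and 4 to 6 lower without 1 sample. Over all genes, 1868 were called higher at a mean of at least 5 RPKM, where 7859 genes were tested, and without 1 sample 2460 to 2781 were higher and 2153 to 2429 lower. Quantile normalization moved the shares of the summed ligand level to 92.6% (Ctrl) and 96.3% (MYCN KD) for DLL3, 5.97% and 2.21% for JAG2, 0.330% and 0.241% for JAG1, and 0.880% for DLL1 in MYCN KD, and the NOTCH4 share of the receptors to 0.195% and 0.259%. The median log2 fold change of all genes was 0.08 after rescaling and -4.27e-05 after quantile normalization. The cause of these changes was not tested. Where 1 sample was left out, the lone sample of its group was assumed to vary like the other group. The receptors, DLL1 and JAG1 rested on 4 to 111 reads a sample, and how large a difference can be detected at this depth was not tested.

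In these RUVSeq-normalised values, the deviations of same-numbered samples from their group means correlated at -0.985 across 11411 genes. Values already adjusted in this way cannot tell whether the replicate numbers pair the samples. The spread therefore holds less independent information than 4 samples would give. With the replicate block, HES1 alone was called lower of the 4 genes with a mean of at least 1 RPKM. DLL3 (adjusted p = 0.242) and HEY1 (adjusted p = 0.0589) lost the call. JAG2, fitted without the filter, kept its call (-0.44, adjusted p = 0.00981). Of the 45 further pathway genes tested, 9 were called higher and 3 lower, beside 2077 and 1851 of all 11411 genes. With the crossed block, added after the data were seen, HES6 was called higher and 3 of the 4 genes lower. Called higher and lower were also 29 and 15 further pathway genes, and 5910 and 5262 of all 11411 genes. This block pairs the samples whose deviations ran together (correlation 0.985), so it left little spread. The SE of DLL3 was 0.00213, against 0.0553 without a block. Calls were bound to multiply under it, so none of them, that of HES6 included, is read as a result.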

Other observations

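Among the pathway genes below a mean of 1 RPKM, 2 that stood outside the rule for naming genes, chosen after their values were seen, were called in voom. KAT2B, a histone acetyltransferase that joins the Notch coactivator complex, was at 0.474 and 0.596 RPKM in Ctrl, against 1.56 and 1.25 RPKM in MYCN KD, with a log2 fold change of 1.38 (adjusted p = 0.0144). INSM1, a zinc finger factor of neuroendocrine progenitors, was at 0.300 and 0.310 RPKM in Ctrl, against 0.134 and 0.137 RPKM in MYCN KD (log2 fold change -1.13, adjusted p = 0.00780). Both groups of both genes were apart in all 4 samples.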
